A study of Mus musculus with 4 samples.

Results

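The genes described are 10 genes of cytotoxic granules and natural killer (NK) cell receptors, taken as the rows of the deposited tables whose gene symbol is Gzma, Gzmb, Gzmc, Prf1, Nkg7, Cst7, Klrd1, Klrk1, Klrb1c or Ncr1. All 10 symbols had a row in the count table of 22558 genes and in the normalized table of 18324 genes. The RNA came from activated lung group 2 innate lymphoid cells (ILC2s), the tissue-resident lymphocytes that release type 2 cytokines when they sense interleukin 33 (IL-33). Mice of 6 weeks were either C57BL/6 (WT) or ICAM-1 KO, a strain with a germline disruption of the adhesion molecule gene Icam1 in all cells, and all of them, WT mice too, received 3 intranasal doses of 0.5 µg recombinant mouse IL-33, so that no unchallenged library is present. On day 4 lungs were pooled from 4 mice per library, and cells that carried CD45, ST2 and CD127 and lacked a set of lineage markers were sorted to a stated purity above 95%. That set held T cell, B cell, myeloid, erythroid and FcεRIα antibodies and, as listed, no antibody to an NK cell receptor. Each genotype has 2 libraries, and p-values measure the spread between these pools.

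Cytotoxic lymphocytes kill by emptying granules onto a target cell. Perforin, encoded by Prf1, opens pores through which granzymes, a family of serine proteases, enter the target. Granzymes are made as inactive precursors that cathepsin C trims in the granule, and cystatin F, encoded by Cst7, inhibits cathepsins including cathepsin C. NK cell receptors set whether a cell fires: NKG2D (Klrk1) and NKp46 (Ncr1) activate, NK1.1 (Klrb1c) activates and is the classical surface marker of NK cells in this strain, and CD94 (Klrd1) pairs with NKG2 chains to form receptors for the non-classical class I molecule Qa-1. ILC2s are not regarded as killer cells, although activated ILC2s are known to make granzyme B.

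Positions are given on mm10, in the coordinates of the deposited tables. Gzmb (chr14:56258838-56262260) and Gzmc (chr14:56231441-56234656) are neighbours on the minus strand, in the cluster that also holds mast cell chymases, whereas Gzma (chr13:113093825-113100981, minus strand) lies on another chromosome. Klrb1c (chr6:128778485-128789215, minus strand), Klrd1 (chr6:129591782-129598775, plus strand) and Klrk1 (chr6:129610323-129623864, minus strand) are in the NK gene complex. Prf1 (chr10:61297833-61304680), Nkg7 (chr7:43437073-43438249), Ncr1 (chr7:4337724-4345164) and Cst7 (chr2:150570415-150578944) are on the plus strand. All are protein coding, and their longest annotated transcripts have 3 to 7 exons, except that of Klrk1, whose longest transcript is a retained intron and whose longest coding transcript has 8 exons.

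Gzmc passed the test described below and its neighbour Gzmb did not (the difference between them was not tested), and the most similar stretch of the pair is shown because it bears on how well their reads can be told apart. Their coding sequences of 744 and 747 bases were identical at 75.7% of aligned positions, against 54.8% for Gzma with Gzmb and 52.8% for Gzma with Gzmc. The longest run shared by Gzmb and Gzmc was 49 bases. It is printed in capitals with 12 bases on either side, from base 340 to base 412 of the Gzmb coding sequence and from base 343 to base 415 of the Gzmc coding sequence, counted from the first base of the start codon.
Gzmb: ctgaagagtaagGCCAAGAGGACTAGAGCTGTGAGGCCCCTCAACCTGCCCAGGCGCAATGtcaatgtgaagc
Gzmc: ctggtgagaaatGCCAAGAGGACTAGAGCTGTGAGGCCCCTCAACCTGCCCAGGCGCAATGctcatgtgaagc
Of all 50-base windows of the longest protein-coding transcripts, none of the 1387 windows of Gzmb occurred in a transcript of another gene. The window was longer than the 49-base run shared with Gzmc, so it could show no match between the coding sequences of this pair. Shorter windows were not examined. For Gzmc, 35 of 845 windows (4.1%) did, 32 of them in Gzme, 21 in Gzmg and 3 in Gzmd. For Klrb1c the number was 465 of 2574 (18.1%), mostly in Gm44511, a gene model that shares exon bases with it on the same strand, and in Klrb1a and Klrb1b. The other 7 genes shared none. The counts of Gzmc and Klrb1c therefore carry some uncertainty of assignment, and the deposited counts split such reads between genes.

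The RefSeq promoters of the genes that passed the test below are printed as the regulatory sequence next to them, from 250 bases before to 50 bases after the annotated start (GRCm38.p6). Capitals mark the RUNX core letters TGTGGT or their complement ACCACA, since RUNX factors are known regulators of perforin, granzyme and NK receptor genes.
Klrk1, chr6:129623815-129624114, minus strand: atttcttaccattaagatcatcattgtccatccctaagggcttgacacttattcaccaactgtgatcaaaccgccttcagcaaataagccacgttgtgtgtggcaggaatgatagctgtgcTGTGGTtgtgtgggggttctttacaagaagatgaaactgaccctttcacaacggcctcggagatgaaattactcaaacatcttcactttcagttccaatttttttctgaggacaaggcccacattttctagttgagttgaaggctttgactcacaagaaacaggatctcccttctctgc
Klrb1c, chr6:128788592-128788891, minus strand: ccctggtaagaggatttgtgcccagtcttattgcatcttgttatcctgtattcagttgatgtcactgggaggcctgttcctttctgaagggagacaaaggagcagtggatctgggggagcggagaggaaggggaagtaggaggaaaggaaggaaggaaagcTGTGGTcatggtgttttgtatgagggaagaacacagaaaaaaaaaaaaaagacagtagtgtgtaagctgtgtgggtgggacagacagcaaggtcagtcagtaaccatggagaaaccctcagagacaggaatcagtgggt
Gzmc, chr14:56234608-56234907, minus strand: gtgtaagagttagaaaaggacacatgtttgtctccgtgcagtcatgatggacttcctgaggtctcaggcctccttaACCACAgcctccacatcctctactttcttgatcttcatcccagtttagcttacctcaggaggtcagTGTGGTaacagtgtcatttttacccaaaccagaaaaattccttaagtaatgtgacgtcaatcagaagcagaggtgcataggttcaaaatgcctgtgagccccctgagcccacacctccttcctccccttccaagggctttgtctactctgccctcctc
Nkg7, chr7:43436888-43437187, plus strand: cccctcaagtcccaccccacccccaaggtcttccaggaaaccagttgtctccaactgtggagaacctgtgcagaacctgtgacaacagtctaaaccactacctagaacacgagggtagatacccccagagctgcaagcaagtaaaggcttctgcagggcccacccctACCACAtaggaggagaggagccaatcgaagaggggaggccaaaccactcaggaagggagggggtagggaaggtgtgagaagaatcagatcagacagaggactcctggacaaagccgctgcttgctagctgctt
Cst7, chr2:150570165-150570464, plus strand: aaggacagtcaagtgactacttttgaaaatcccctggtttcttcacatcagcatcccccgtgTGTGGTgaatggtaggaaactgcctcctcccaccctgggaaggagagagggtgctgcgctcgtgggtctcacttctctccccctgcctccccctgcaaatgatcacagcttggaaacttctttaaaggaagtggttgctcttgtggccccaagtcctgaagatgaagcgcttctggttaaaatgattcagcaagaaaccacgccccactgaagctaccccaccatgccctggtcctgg
A promoter was found for 9 of the 10 genes (not Klrd1), and 5 motifs were searched on both strands. The RUNX letters were in a promoter of 9 of the 9 genes, against 18.9% of 27025 genes (16.8% of all 32851 promoters of this length). By gene as well, the T-box letters GGTGTG were in 2 of 9 against 21.4%, and the AP-1 letters TGANTCA in 3 of 9 against 9.0%. The STAT letters TTCNNNGAA were in 2 of 9 against 9.6%, and the GATA letters AGATAA in 0 of 9 against 12.7%. RUNX and T-box letters can overlap in the run GGT. The RUNX letters thus occurred in promoters of genes that were higher, lower or not past the test alike, and say only that the letters are there.

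Libraries held between 24796148 and 28782471 counts. Icam1, the targeted gene (chr9:21015985-21028817), was counted 2579 and 2630 times in WT, against 2812 and 3453 times in the ICAM-1 KO libraries. Its log2 difference was 0.33 with an SE of 0.108 (edgeR quasi-likelihood test, adjusted p = 0.0745), so its RNA was not lower there. The reads of an antisense gene over it were not separated, and those libraries are called KO-labelled, by their label only. The paper reports by flow cytometry that lung ILC2s of these mice lack ICAM-1 protein. RNA counts do not measure protein and so cannot decide the genotype. ILC2 markers were abundant in all 4 libraries: their 16 normalized counts summed to 7337 and 7885 in WT, against 6276 and 6331 in the KO-labelled libraries. The list holds effector and activation genes besides identity genes. Il5 (mean 1145 in WT against 662 KO-labelled), Arg1 (1583 against 993) and Il2ra (767 against 530) were lower. Il1rl1 (677 against 767), Il7r (252 against 301), Klrg1 (365 against 475) and Rora (602 against 624) were among 6 of the 16 with a positive log2 difference. Of those named, only Klrg1 passed the test described below (edgeR, adjusted p = 0.0191). Gata3 (515 against 457) and Hlf (126 against 82) also had lower KO-labelled means, and Hlf passed (edgeR, adjusted p = 0.0109).

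Granzyme B dominated the 10 genes. Per length, as CPM (counts scaled to a common library total) per kb of the longest transcript, Gzmb stood at 195 and 215 in WT and at 221 and 260.0 in the KO-labelled libraries. It supplied between 64.1% and 69.2% of the counts of the 10 genes in each library, and Gzmb, Cst7 and Nkg7 together between 87.4% and 93.9%. Perforin was near the other end of the order, at 1.19 and 1.35 in WT and 3.36 and 0.869 in the KO-labelled libraries. Granzyme B RNA was thus abundant in these sorted cells while RNA of the pore former was sparse in each library.

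In WT the level per kb ran in the order Gzmb (205 ± 14.2, SD, n = 2), Cst7 (102 ± 10.9), Nkg7 (30.4 ± 0.493), Gzma (13.0 ± 8.31) and Klrd1 (3.80 ± 0.889), and the library values of neighbours in this order did not overlap. Below them Gzmc (1.54 ± 0.201), Klrb1c (1.51 ± 0.805), Ncr1 (1.5 ± 0.902), Klrk1 (1.47 ± 0.106) and Prf1 (1.27 ± 0.114) lay within the spread of Klrb1c and Ncr1 and cannot be ordered. With the union of exons as the length, Klrk1 was lower, at 0.667, and Klrd1 at 2.73. Among the KO-labelled libraries the first 5 places were held by the same genes in the same order, with Gzmb at 240.3 ± 27.8, Cst7 at 67.3 ± 4.03, Nkg7 at 51.9 ± 7.44, Gzma at 14.7 ± 0.0512 and Klrd1 at 5.82 ± 0.287. Gzmc (5.07 ± 0.151), Klrb1c (4.48 ± 0.946) and Klrk1 (4.12 ± 0.0852) followed, with Gzmc and Klrk1 within the range of Klrb1c or just above it. Ncr1 at 1.26 ± 0.398 lay within the wide range of Prf1 (2.11 ± 1.76).

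**Figure D1:**
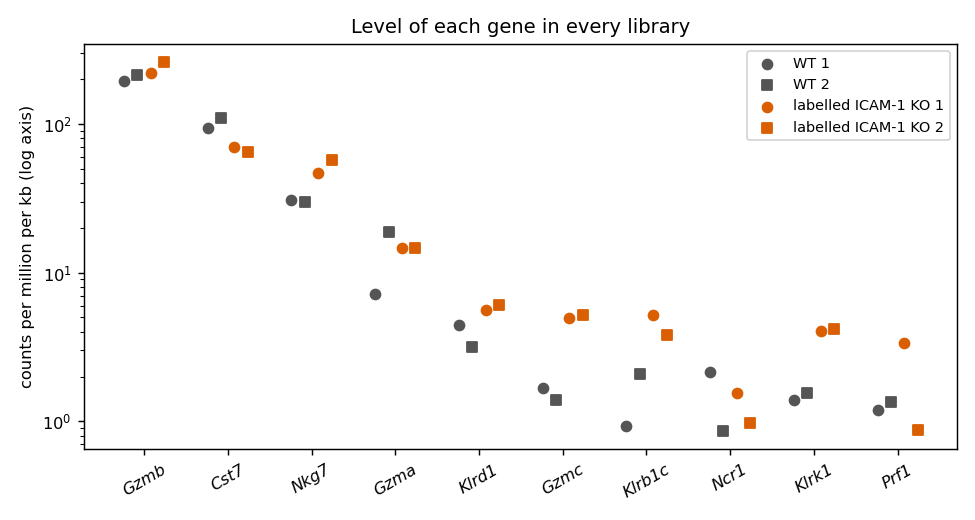
Level of each of the 10 genes in every library, in CPM per kb of the longest transcript on a log axis, with genes in the order of their WT mean. Gzmb was the highest gene in all 4 libraries, at 195 to 260.0, and Prf1 lay between 0.869 and 3.36.

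The comparison of genotypes asks whether loss of ICAM-1 alters the RNA of IL-33-activated ILC2s. Of the 10 genes, 9 passed the filter on low values (normalized counts that averaged 1 or more and summed to 10 or more), and 5 of these passed the test at an adjusted p under 0.05. Klrk1, Klrb1c, Gzmc and Nkg7 were higher in the KO-labelled libraries and Cst7 was lower. Over all 11711 genes tested 13.8% were called, 8.8% as higher and 4.97% as lower. At a change of at least 2-fold as well, 3 of the genes were higher and 0 lower, beside 4.94% and 0.538% of all genes (5.47% in either direction). The median log2 difference of the 9 genes was 0.66, against 0.01 for all genes. Both KO-labelled libraries lay above both WT libraries for 5 of the 9 genes (28.3% of all genes), both lay below for 1 (31.3%), and 3 overlapped. More RNA per cell and more cells of a type cannot be told apart in these bulk libraries. Summed T cell, mast cell and myeloid markers were also higher in both KO-labelled libraries, those of T cells at 1124 and 1319 normalized counts against 706 and 784 in WT, and their part in the result was not tested. Summed, the 10 genes had normalized counts of 384 and 440 in WT and 421 and 472 in the KO-labelled libraries, ranges that overlapped.

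**Figure D2:**
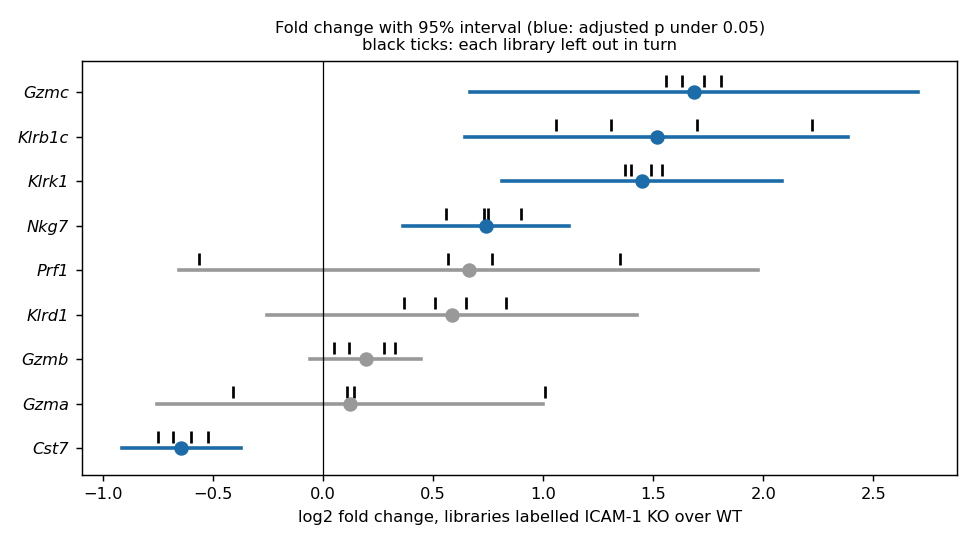
Log2 fold change of the 9 tested genes, KO-labelled libraries over WT, with 95% intervals from edgeR, in blue where the adjusted p was under 0.05, and black ticks for the value with each library left out in turn. Gzmc, Klrb1c, Klrk1 and Nkg7 lie above 0 and Cst7 below it under every omission, while the ticks of Prf1 and Gzma fall on both sides of 0.

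Granzyme B, the granzyme that triggers apoptosis by cleaving caspases and their substrates, had 7640 and 8903 counts in WT against 7858 and 10252 KO-labelled. Normalized, these were 252 and 282 against 273 and 327, and the groups overlapped. The log2 difference was 0.19 with a 95% interval from -0.06 to 0.45 (edgeR, adjusted p = 0.276), so a rise of 2-fold lay outside the interval for this abundant gene. Among the alternatives run, Gzmb passed only when libraries were scaled by their ILC2 marker counts (0.44, adjusted p = 0.0194). Of those markers 5 were themselves called lower, and this scale moved the median log2 difference of all genes from 0.011 to 0.255.

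Gzmc, a neighbour of Gzmb whose product is found in strongly activated killer lymphocytes, was higher in the KO-labelled libraries. It had 41 and 36 counts in WT against 110 and 127 KO-labelled, or 1.39 and 1.17 against 3.85 and 4.08 normalized counts. The groups were far apart relative to their spread, at 1.28 ± 0.152 and 3.97 ± 0.16 (SD, n = 2 each). The difference was 3.21-fold, or 1.68 on the log2 scale with a 95% interval from 0.67 to 2.70 (SE 0.449, edgeR, adjusted p = 0.0394). This was the largest fold of the 9 genes and rested on the fewest counts. The call was lost with each library left out in turn, at adjusted p from 0.0651 to 0.144, with log2 values from 1.56 to 1.81.

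Gzma, a tryptase of NK cells and killer T cells, had 194 and 542 counts in WT against 363 and 400 KO-labelled. The 2 WT libraries lay on either side of the others, at 6.44 and 17.2 normalized counts against 12.6 and 12.8. The log2 difference was 0.12 with an interval from -0.75 to 1.00 (edgeR, adjusted p = 0.863), wide enough to hold a rise of nearly 2-fold. Without WT replicate 1 the value was -0.41 and without WT replicate 2 it was 1.01. The remaining granzymes were close to absent: of 7 further symbols 3 had a row, and none was tested. Gzmk had 6, 0, 0 and 12 counts, Gzmm 0, 9, 27 and 13, and Gzme 0, 5, 0 and 0, in the order WT replicates 1 and 2 and then KO-labelled 1 and 2.

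Perforin RNA was sparse and uneven. Prf1 had 80 and 96 counts in WT against 206 and 59 KO-labelled, so that the latter held both the highest and the lowest value. The log2 difference was 0.66 with an interval from -0.65 to 1.98 (edgeR, adjusted p = 0.485), and without ICAM-1 KO replicate 1 it was -0.56.

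Nkg7, a granule membrane protein needed for degranulation, had 739 and 763 counts in WT against 1019 and 1383 KO-labelled. Its normalized counts of 24.4 and 24.2 were almost the same in the WT pools and lower than 35.4 and 44.1 in the others. Nkg7 rose 1.67-fold, by 0.74 on the log2 scale with an interval from 0.36 to 1.12 (SE 0.166, edgeR, adjusted p = 0.0219). When each library was left out in turn the difference was 0.56 to 0.90 and the call was kept without ICAM-1 KO replicate 1 (adjusted p = 0.00571) and lost in the other 3 fits, at adjusted p up to 0.118.

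Cst7, the cathepsin inhibitor and the second most abundant gene of the set, was the gene that fell. It had 2542 and 3124 counts in WT against 1715 and 1745 KO-labelled, or normalized counts of 84.0 and 99.0 against 59.6 and 55.6. The groups, with means of 91.5 ± 10.6 and 57.6 ± 2.78 (SD, n = 2 each), did not overlap, and the fitted fold was 1.56, a log2 difference of -0.64 with an interval from -0.91 to -0.37 (SE 0.12, edgeR, adjusted p = 0.0111). With each library left out the value was -0.75 to -0.52, and the call was lost only without WT replicate 2 (adjusted p = 0.0628). It was kept when scaled to the ILC2 markers (-0.39, adjusted p = 0.0428), a scale built in part from genes that were lower, which raised the median of all genes. Ctsc, which encodes the cathepsin C that cystatin F inhibits, had 3789 and 4544 counts in WT against 5048 and 6479 KO-labelled, and rose 1.45-fold (log2 0.53, adjusted p = 0.0195).

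Klrk1, the gene of NKG2D, had 124 and 145 counts in WT against 328 and 374 KO-labelled. Normalized, the values were 4.13 and 4.62 against 11.4 and 11.9. Klrk1 rose 2.73-fold, by 1.45 on the log2 scale with an interval from 0.81 to 2.09 (SE 0.281, edgeR, adjusted p = 0.0128). With each library left out the difference was 1.37 to 1.54, past the threshold without either KO-labelled library and not without WT replicate 1 (adjusted p = 0.0621) or 2 (0.0508). NKG2D signals through DAP10, encoded by Hcst, and DAP12, encoded by Tyrobp. Hcst had 1449 and 1626 counts in WT against 1154 and 1657 KO-labelled, with overlap and a log2 difference of -0.07 (interval -0.42 to 0.29, adjusted p = 0.815). Tyrobp, with 912 and 844 against 1140 and 1386 counts, rose by 0.59 on the log2 scale (adjusted p = 0.0344). Per kb Hcst exceeded its receptor many times over, with a WT mean of 124 CPM per kb beside 1.47 for Klrk1. Of 5 NKG2D ligand genes 4 had a row and 1 was tested: Ulbp1 had 195 and 187 against 295 and 354 counts and did not pass (log2 0.83, adjusted p = 0.0715).

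Klrb1c, the gene of NK1.1, had 67 and 157 counts in WT against 335 and 275 KO-labelled. The normalized values of 2.24 and 4.99 in WT were both below 11.7 and 8.78 in the others, but each group was wide, at 3.62 ± 1.94 and 10.2 ± 2.04 (SD, n = 2 each). Klrb1c rose 2.86-fold, by 1.52 on the log2 scale with an interval from 0.65 to 2.39 (SE 0.384, edgeR, adjusted p = 0.0342). With each library left out the difference ran from 1.06 to 2.22 and the call was lost without WT replicate 1 (adjusted p = 0.133) and without ICAM-1 KO replicate 1 (0.0732). The gene model that overlaps it, Gm44511, had 15, 0, 31 and 1 counts.

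Klrd1, the gene of CD94, had 111 and 84 counts in WT against 128 and 152 KO-labelled, or 3.70 and 2.69 against 4.48 and 4.87 normalized counts. The groups did not overlap, but the difference of 0.59 on the log2 scale did not pass the test (interval -0.25 to 1.42, edgeR, adjusted p = 0.323). Its partner chain NKG2A is encoded by Klrc1, which had 93 and 123 against 291 and 215 counts and rose by 1.30 on the log2 scale (adjusted p = 0.0413). Ncr1, the gene of NKp46, was too low for the filter of the comparison, with 87 and 37 counts in WT and 57 and 40 in the KO-labelled libraries. It was the 1 gene of the 10 left out as low, and the groups overlapped. Kept under other filters, its log2 difference was between -0.33 and -0.29 with adjusted p from 0.777 to 0.793.

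Klrb1c, Klrd1 and Klrk1 share the NK gene complex with other lectin-like receptors, and 49 rows of the count table lay between the first and last listed gene of the complex (chr6:128609227-131247362). Of these 17 were tested, 7 were higher, 0 were lower, and 14 had a positive difference, with a median log2 value of 0.66. Over all 11711 genes tested 8.8% were higher, 4.97% were lower and 5999 had a positive difference. These shares are also the ones to set beside the counts of each list below. The 7 included genes that are no NK cell genes: Clec7a, the β-glucan receptor of myeloid cells, with 560 and 646 against 1399 and 1621 counts (log2 1.39, adjusted p = 0.00117), and Clec1a (log2 1.84, adjusted p = 0.00159). Cd69, an activation marker in the same complex and the one of the 17 with the highest normalized counts, had overlapping groups (0.13, adjusted p = 0.636). In the cluster of Gzmb and Gzmc, 15 rows held 8 tested genes, of which Gzmc and the mast cell chymase Cma1 were higher and 0 were lower. Genes of both clusters were counted by position, and the names were read after their values were seen.

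**Figure D3:**
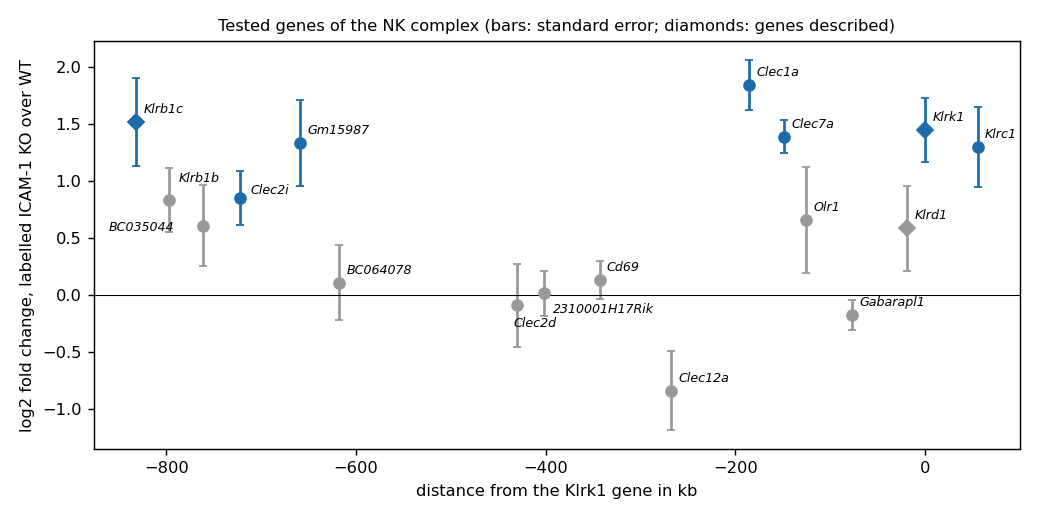
Log2 fold change, KO-labelled libraries over WT, of the 17 tested genes of the NK gene complex against their distance in kb from Klrk1, with standard errors, in blue where the adjusted p was under 0.05 and with diamonds for Klrb1c, Klrd1 and Klrk1. The 7 higher genes were Klrb1c, Clec2i, Gm15987, Clec1a, Clec7a, Klrk1 and Klrc1, and genes between Clec2i and Clec1a included several near 0.

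Among 22 other receptor genes of the NK complex and its relatives that had a row, 6 were tested, 3 were higher and 0 lower. They were Klrg1 (log2 0.41, adjusted p = 0.0191), an inhibitory receptor that is also an activation marker of ILC2s, with 11636 and 10935 against 13423 and 15196 counts, and the low genes Klrc1 and Clec2i (log2 0.85, adjusted p = 0.044). Of 13 adaptors and partners of NK receptors, 11 were tested, 5 were higher and 0 lower, with a median log2 value of 0.72. Slamf6, a receptor shared by T cells and NK cells, rose most, from 234 and 574 to 1311 and 1649 counts (log2 1.94, adjusted p = 0.00483). Its adaptor gene Sh2d1a (1.46, adjusted p = 0.0198), the Fc receptor gene Fcgr3 (0.83, adjusted p = 0.012) and Slamf7 (1.32, adjusted p = 0.0486) were also higher, beside Tyrobp. By mean normalized count over the 4 libraries, which does not account for length, the highest of the list were Cd226 (-0.19, adjusted p = 0.47), Hcst and Cd247 (0.72, adjusted p = 0.0995), which did not pass.

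Of 15 genes of granule formation and release with a row, 14 were tested, 5 were higher and 0 lower, and the median log2 value was 0.19. Serpinb9, the inhibitor that guards a cell against its own granzyme B, had 1316 and 1654 counts in WT against 2339 and 2465 KO-labelled, and rose by 0.76 on the log2 scale (adjusted p = 0.00699). Its relative Serpinb6b rose by 0.63 (adjusted p = 0.0402). Fasl, the death ligand, had 79 and 79 against 226 and 252 counts (1.66, adjusted p = 0.0147), and Lyst, needed for the sorting of granule contents, rose by 1.20 (adjusted p = 0.0195). Ctsc was the fifth. The genes of the list with the highest normalized counts did not pass: Srgn, the proteoglycan that packs granzymes, had a log2 difference of -0.03 (adjusted p = 0.881), and Lamp1 (0.14, adjusted p = 0.303) and Stx11 (0.05, adjusted p = 0.844) were likewise close to 0.

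Markers of other cells that can carry these genes were in part higher in the same libraries. Of 19 NK cell and group 1 innate lymphoid cell markers other than the 10 genes, 7 were tested, and 1 was higher, Cma1, which is also the mast cell chymase. The abundant Il2rb (-0.09, adjusted p = 0.544) and Txk (-0.06, adjusted p = 0.907) did not pass. All 19 summed to 1056 and 1023 normalized counts in WT against 1142 and 1332, which did not overlap. Without Cma1 and Il2rb the remaining 17 summed to 65.7 and 95.5 normalized counts in WT. The KO-labelled sums were 97.0 and 88.6, which overlapped with these. Most of that sum was Txk (23.0 and 38.8 in WT, 34.6 and 23.9 KO-labelled) and Ccl5 (26.6 and 28.0, 27.1 and 31.7). A smaller sum, of Eomes, Klra4, Klra7, Klra8, Klra9, Klre1 and S1pr5, did not overlap. These genes, all too low for the filter, were picked after their values were seen, so their sum does not stand for the list. The sum was 4.86 and 6.44 in WT against 9.79 and 7.91 KO-labelled, although the mean of Klra7 was lower (1.09 against 1.36). Of the low genes left out of it, Klrc2 and Xcl1 were higher in both KO-labelled libraries. Zfp683 and Il12rb2 overlapped, as did Styk1, whose KO-labelled mean was lower (0.146 against 0.824 in WT). None of the 19 was at 0 in both libraries of a group, and 12 were too low for the filter. Of genes used to define NK cells, Itga2 (CD49b) passed the filter, with 104 and 288 counts in WT against 343 and 315 KO-labelled (0.82, adjusted p = 0.198), and Klrc2 did not, with 5 and 73 against 81 and 114. Eomes, the transcription factor of NK cells, had 16 and 63 counts in WT against 57 and 79 KO-labelled. Tbx21, which it shares with group 1 innate lymphoid cells, had 87 and 74 against 133 and 107 (log2 0.64, adjusted p = 0.316).

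T cell markers were present although T cell antibodies were part of the sort. All 12 were tested, 7 were higher and 0 lower, with a median log2 value of 1.10. Foxp3, the factor of regulatory T cells, rose by 1.84 on the log2 scale (adjusted p = 0.000224), Trac by 1.60 (adjusted p = 0.000674), and Cd5 and Cd4 by 1.55 each. Those with the highest normalized counts, Trbc2 (0.25, adjusted p = 0.0987) and Trbc1 (0.48, adjusted p = 0.0169), encode constant regions of the T cell receptor. Trdc, the constant region of the γδ T cell receptor, rose by 2.42 from 17 and 35 to 118 and 148 counts (adjusted p = 0.0166), whereas neither chain of CD8, the marker of killer T cells, passed. Cd8a had 116 and 138 against 142 and 94 counts (-0.04, adjusted p = 0.962), and Cd8b1 170 and 257 against 405 and 253 (0.70, adjusted p = 0.208). Of 9 mast cell and basophil markers 3 were higher and 0 lower, with sums of 1555 and 1260 against 1754 and 2203, and of 12 myeloid and granulocyte markers 10 were tested, 7 were higher and 2 lower, with sums of 359 and 323 against 578 and 799.7. Those with the smallest p were Tpsab1, Cma1 and Tpsb2 for mast cells, with Cpa3 abundant but not past the test (0.40, adjusted p = 0.0845), and the lower Epx and Prg2 of eosinophils and the higher S100a9 and Itgam for myeloid cells, where Lyz2 had the highest normalized counts. ILC2 markers were lower more often than higher, with 2 higher and 5 lower of 16. Il13, Il5 (-0.76, adjusted p = 0.00266), Arg1 and Hlf led the lower ones, and the abundant Areg did not pass (-0.23, adjusted p = 0.169). In the lists with 0 lower genes by edgeR, DESeq2 and limma also called 0 lower, and at an unadjusted p under 0.05 only Cd3g of the T cell list and Clec12a of the NK complex were lower.

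**Figure D4:**
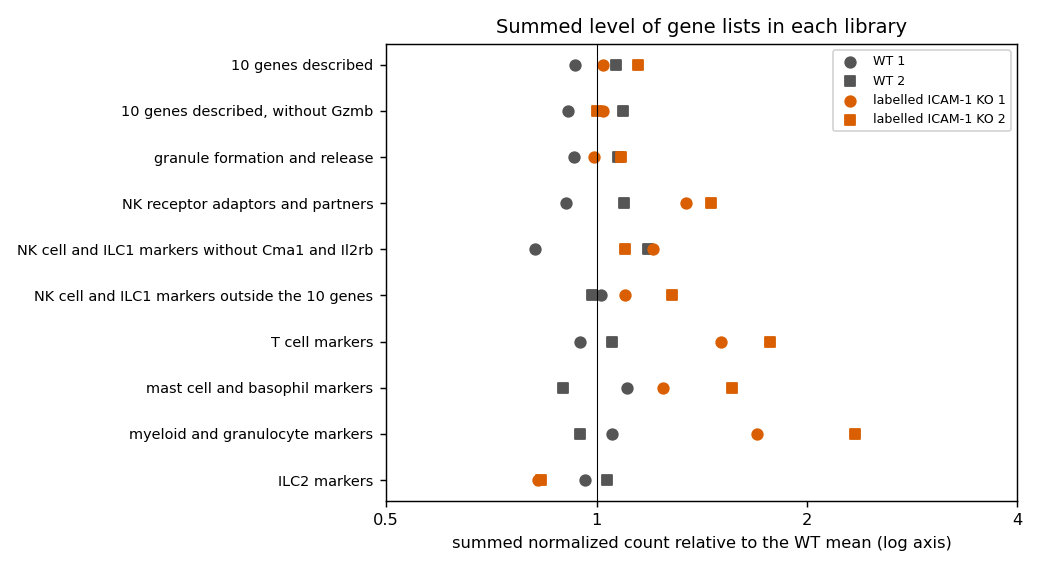
Summed normalized counts of gene lists in each library relative to the WT mean of the list, on a log axis. The 10 genes, the genes of granule release and the NK markers without Cma1 and Il2rb, mostly Txk and Ccl5, overlapped between genotypes. Sums of T cell, mast cell and myeloid markers were higher in both KO-labelled libraries. The sum of ILC2 markers, which include Il5 and Arg1, was lower.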

How the data were processed

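RNA-seq libraries of sorted, IL-33-activated lung ILC2s from 2 WT and 2 ICAM-1 KO pools of 4 mice were compared. Per the study's methods, cDNA was prepared by a SMARTer kit for low RNA input, sequenced, aligned with STAR to mm10 with GENCODE M20 and quantified in Partek. The submitters' processing notes list STAR 3.5.3 and CASAVA 1.8.2. The authors deposited expected counts per gene, not normalized, of which 53.3% are whole numbers (tolerance 1e-09), and a normalized signal, which equals the count plus 1 times 1 factor per library after upper quartile scaling. Printed counts are rounded expected counts. 21 symbols had the form of dates and are not named.

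Counts were rounded and tested with edgeR 4.0.16 (quasi-likelihood, upper quartile factors, R 4.3.3, all 4 libraries, no covariate), with Benjamini-Hochberg adjustment over 11711 genes that had a mean normalized value of at least 1 and a sum of at least 10, the filter of the study, whose own test (GSA in Partek) was not run. Tests are two-sided and called at an adjusted p under 0.05. Fold changes are fitted and intervals are at 95%. DESeq2 1.42.0, limma 3.58.1 and other scalings and filters were alternatives. The fit was tested on simulated data first, in 3 draws with 200 changed genes each, fewer than the 1612 called in the data. There edgeR recovered 67.3% of log2 changes of 1 and 91.3% of log2 changes of 2. Of its calls 6.11% were false. Transcript lengths came from GENCODE M21, with coordinates equal for 21880 of 22558 rows. All 10 genes were named, Icam1 as the check of labels, and of each list up to 4 called genes with the smallest p and the 3 with the highest mean normalized count. Others (Serpinb6b, Slamf7, Clec7a, Clec1a, Trdc, Cd8a, Cd8b1, Itga2, Klrc2, Eomes, Tbx21, Cd3g, Clec12a, Ccl5, Klra4, Klra7, Klra8, Klra9, Klre1, S1pr5, Styk1, Xcl1, Zfp683, Il12rb2, Il1rl1, Il7r, Il2ra, Gata3 and Rora) were chosen after their values were seen. The 10 genes and all lists were chosen with earlier results of these data known. Strandedness of the counting is not given in the sources used here. Precision rests on 2 pools per genotype, and the counts of low genes carry counting error besides.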

Additional observations from a re-analysis of the deposited data

How the results depend on the processing

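Directions held for all 9 tested genes under TMM factors, ILC2 marker factors, DESeq2, limma, the older quasi-likelihood fit, 3 other filters and the replicate block, and turned with a library left out for Gzma (-0.41 without WT replicate 1) and Prf1 (-0.56 without ICAM-1 KO replicate 1). Of the 10 genes, 1 was higher (and 1 at 2-fold) with no filter, when 22158 tested genes gave 334 higher and 201 lower. With filterByExpr 2 were higher (1 at 2-fold), when 16404 tested genes gave 838 higher and 542 lower. Gzmc lost its call with limma (adjusted p = 0.0751), no filter (0.0931) and filterByExpr (0.0612), Nkg7 with no filter (0.0876), and Klrb1c with the older fit (0.0613), no filter (0.107) and filterByExpr (0.0523). The causes were not tested. ILC2 marker factors moved the median of all genes from 0.011 to 0.255 and gave 2435 higher and 112 lower genes (95.6% higher against 63.9%), and DESeq2 gave 930 lower genes. Leaving out 1 library gave 0 to 2 higher genes of the 10 (0 to 2 at 2-fold), 0 to 1 lower, and 479 to 948 higher and 158 to 388 lower over all genes, where a lone library is assumed to vary like the other group. Log2 ranges were -0.41 to 1.01 for Gzma, -0.56 to 1.35 for Prf1, 0.05 to 0.33 for Gzmb and 0.37 to 0.83 for Klrd1, with no call. Same-numbered libraries did not deviate together (r = -0.066 across genes, which are not independent replicates). With 2 libraries per genotype this cannot decide whether the numbers pair them. With the replicate block Gzmc had adjusted p = 0.0581, 3 of the 10 genes were higher and 1 lower, and 1077 and 638 of all genes were called. Depth limits most the genes with few counts, such as Ncr1, Gzmc and Prf1.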
